A study of Homo sapiens with 12 samples.

Results

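DACT1, PABPC4 and ARSB are 3 protein-coding genes that were selected on their change with siARNT in hypoxia, where they showed the largest rises among genes that passed the test, reached 5 CPM on average (CPM here are gene counts scaled to a common library size by TMM) and had groups that did not overlap. They are 3 of 57820 gene IDs in the deposited files, and all 3 were among the 16999 genes tested. The RNA came from AsPC-1, an established human pancreatic cancer line. The 4 groups of 3 replicates (A, B and C) were siControl (a scramble siRNA) and siARNT, each at 21% O2 (normoxia) and after 24 h at 1% O2 (hypoxia), and all 12 samples were taken 48 h after transfection. Wells were divided on the day after transfection, so that a normoxia and a hypoxia sample of the same siRNA can come from the same transfected well, and the normoxia libraries are separate measurements but not necessarily separate transfections. The siRNA sequences, and whether siARNT was a single siRNA or a pool, are not given in the sources used here. Nothing in the labels says that the replicates came from separate cultures beyond separate wells, so p-values measure the spread between these samples.

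ARNT is the constant partner of the oxygen-regulated HIF alpha subunits and also of the aryl hydrocarbon receptor, and its dimers bind short DNA motifs such as the hypoxia response element. DACT1 is an intracellular Dishevelled-binding protein that modulates Wnt signalling. PABPC4 is a cytoplasmic poly(A)-binding protein, a relative of the abundant PABPC1, and coats the poly(A) tails of mRNA. ARSB is a lysosomal sulfatase that removes sulfate groups from the glycosaminoglycans dermatan sulfate and chondroitin sulfate.

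DACT1 (ENSG00000165617.10) lies on the plus strand of chromosome 14 at chr14:58633967-58648321, PABPC4 (ENSG00000090621.9) on the minus strand at chr1:39560816-39576790 and ARSB (ENSG00000113273.11) on the minus strand at chr5:78777209-78986087 (GRCh38, GENCODE 29). The RefSeq promoter table (GRCh38.p14) holds 3 starts of DACT1 and 2 of ARSB. PABPC4 was not matched there. The 250 bases before each start were searched on both strands for the motif cores ACGTG and GCGTG and for the E-box CACGTG. The E-box contains ACGTG on both strands. A core is not assigned here to the HIF alpha subunits or to the aryl hydrocarbon receptor. Over 35116 promoters of the same length, 18.5% held ACGTG, 32.2% held GCGTG and 6.34% held the E-box. Of the 3 DACT1 starts, 1 had 3 matches of GCGTG, 1 had 1 and 1 had no match of any motif. Of the 2 ARSB starts, 1 had the E-box 160 bases before the start (2 overlapping matches of ACGTG) and 1 match of GCGTG. The other had none. The start of each gene with the most matches is printed here because these motifs are those that ARNT dimers are known to bind, with the matches in capitals. The first is chr14:58638587-58638836, plus strand, with a GC content of 69.6%, and the second chr5:78985959-78986208, minus strand, with 44.0%. A match describes the letters in the window and is not a measured site, and the gene counts do not say which start was used.
DACT1 promoter: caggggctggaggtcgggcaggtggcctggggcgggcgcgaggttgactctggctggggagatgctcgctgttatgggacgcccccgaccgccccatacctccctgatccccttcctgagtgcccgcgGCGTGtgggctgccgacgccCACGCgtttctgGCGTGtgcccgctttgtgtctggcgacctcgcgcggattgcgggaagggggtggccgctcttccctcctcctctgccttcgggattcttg
ARSB promoter: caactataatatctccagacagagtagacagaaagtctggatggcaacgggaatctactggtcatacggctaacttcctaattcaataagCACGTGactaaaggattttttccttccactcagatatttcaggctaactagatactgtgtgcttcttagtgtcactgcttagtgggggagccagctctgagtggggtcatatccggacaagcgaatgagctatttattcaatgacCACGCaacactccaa

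The totals of gene counts ran from 38525512 to 84337166 reads per library, and DACT1 held 224 to 1412 reads, ARSB 276 to 1576 and PABPC4 3087 to 17628. ARNT itself stood at 62.4 ± 1.53 CPM in normoxia siControl and 13.4 ± 0.56 CPM in normoxia siARNT, and at 69.1 ± 3.81 and 15.3 ± 1.04 CPM in hypoxia (SD, n = 3). The oxygen labels were checked with CA9, NDRG1 and EGLN3, which were 9.62-, 8.52- and 9.76-fold higher in hypoxia in siControl. All 8 markers of ductal epithelium were present, with a summed level of 5915 to 10005 CPM. With siARNT in normoxia 4 of them (KRT8, KRT18, EPCAM and CDH1) were called higher and CEACAM6 was called lower (2682 against 1911 CPM, adjusted p 0.000752, edgeR), and in hypoxia MUC1 and CEACAM6 were called lower (adjusted p 5.71e-06 and 9.56e-05, edgeR). The number called higher in normoxia was 2 without siARNT replicate B and 1 without siControl replicate A, B or C. For all genes that number was 1601, and 561 to 1901 with 1 normoxia library left out. Of 10 markers of leukocytes, fibroblasts, endothelium and other pancreatic cells, 9 stayed under 1 CPM in every library, 2 (CD3E and INS) were at 0 in every library, and their sum was 1.08 to 2.00 CPM. The part of the epithelial markers in the results was not tested, and in bulk samples fewer cells of a type and less RNA per cell cannot be told apart. Normoxia siARNT replicate B stood apart in its GC dependence (a slope of 0.4309 in log2 CPM per 10 points of GC content, against -0.2085 to 0.2426 in the other libraries), and the normoxia values of the 3 genes, the counts of the gene lists and the coverage of introns are given with and without it. In hypoxia siARNT, replicate C had the highest slope (0.2426, against -0.1791 and 0.0196), and the hypoxia splicing shares and coverage are given only with it.

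With siARNT in normoxia, which was not used to choose the genes, all 3 rose, PABPC4 by the most. PABPC4, the poly(A)-binding protein, measured 72.7, 74.0 and 76.3 CPM in normoxia siControl and 206, 212 and 196 CPM in normoxia siARNT (replicates A, B and C). All siARNT libraries were above all siControl libraries, the lowest being 2.57 times the highest siControl value. The log2 fold change was 1.46 (SE 0.052, a 2.75-fold rise, adjusted p 1.79e-08, edgeR quasi-likelihood test with Benjamini-Hochberg adjustment). By size this was rank 19 among 9855 genes that averaged at least 5 CPM.

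DACT1, the Dishevelled-binding protein, measured 8.64, 8.42 and 7.48 CPM in normoxia siControl and 16.5, 16.9 and 16.5 CPM in normoxia siARNT. The groups did not overlap and the 3 siARNT libraries had an SD of 0.240 CPM. The log2 fold change was 1.03 (SE 0.086, a 2.04-fold rise, adjusted p 1.58e-05, edgeR), at rank 154 of 9855.

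ARSB, the lysosomal sulfatase, measured 12.1, 12.4 and 12.3 CPM in normoxia siControl and 18.4, 16.3 and 16.8 CPM in normoxia siARNT. Here too the groups did not overlap, but the step was the smallest of the 3 genes. The log2 fold change was 0.48 (SE 0.088, a 1.40-fold rise, adjusted p 0.00323, edgeR), at rank 1296 of 9855. Of all genes tested, 9.42% were called higher, 10.8% were called lower, and in 23.2% the siARNT libraries lay wholly above the siControl libraries. With the replicate letter as a replicate block the number of genes called higher was 2512 in place of 1601, and the 3 genes kept their calls (adjusted p 1.06e-07 for PABPC4, 4.34e-05 for DACT1 and 0.00281 for ARSB). Without normoxia siARNT replicate B the log2 fold changes were 1.42, 1.00 and 0.51 in the same order, all called (adjusted p 2.18e-08, 3.68e-05 and 0.00389, edgeR).

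**Figure D1:**
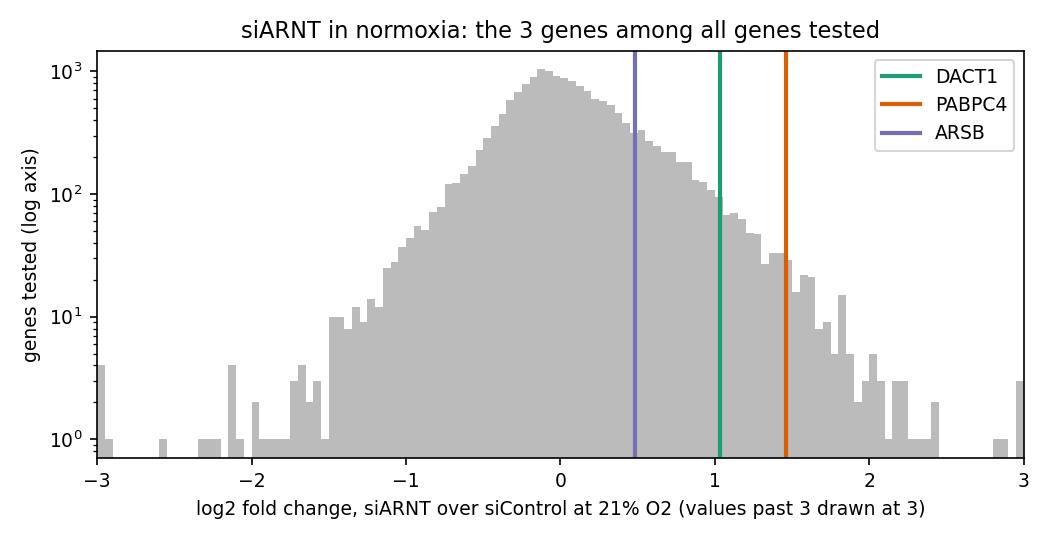
Histogram of the log2 fold change for siARNT in normoxia over the 16999 genes tested (x axis; number of genes on a log y axis; values past 3 in size drawn at 3). Vertical lines mark ARSB at 0.48, DACT1 at 1.03 and PABPC4 at 1.46, and many genes lie beyond ARSB.

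In hypoxia, the contrast that chose the genes, the values are a description. DACT1 measured 5.31, 4.81 and 5.62 CPM in siControl and 21.5, 21.2 and 20.1 CPM in siARNT, a log2 difference of 2.00. PABPC4 measured 69.2, 66.3 and 71.0 CPM in siControl and 219, 212 and 214 CPM in siARNT, a log2 difference of 1.64. ARSB measured 6.88, 6.62 and 5.92 CPM in siControl and 20.1, 19.8 and 17.6 CPM in siARNT, a log2 difference of 1.57. The lowest siARNT library was 3.58, 2.99 and 2.56 times the highest siControl library for DACT1, PABPC4 and ARSB. Over all genes tested, 14.4% were called higher and 14.7% lower in this contrast, from which nothing is read here, and scaling to total counts gave 3473 higher of 5446 called in place of 2452 of 4948. The siARNT and oxygen contrasts share libraries with each other, so their values are given side by side. Just inside the choice stood ARSB at 1.57 and just outside TM4SF4 at 1.55, followed by TMEM151A at 1.52 and MAPK12 at 1.5.

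The 3 genes differed in how their levels varied with oxygen, as the plot of each library shows. In siControl, hypoxia stood at 0.642-fold of normoxia for DACT1 (5.25 ± 0.409 against 8.18 ± 0.614 CPM), 0.528-fold for ARSB (6.47 ± 0.493 against 12.3 ± 0.148 CPM) and 0.926-fold for PABPC4 (68.8 ± 2.36 against 74.3 ± 1.80 CPM; SD, n = 3). The hypoxia libraries lay below the normoxia libraries for each of the 3, as for 25.3% of all genes tested. In siARNT, hypoxia stood at 1.26-fold of normoxia for DACT1, 1.12-fold for ARSB and 1.05-fold for PABPC4, and the libraries overlapped for ARSB. So the log2 difference of siARNT was larger in hypoxia than in normoxia by 0.97 for DACT1 (SE 0.12) and 1.08 for ARSB (SE 0.13), and by 0.18 for PABPC4 (SE 0.073). These oxygen values share libraries with the contrast that chose the genes and carry no test.

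**Figure D2:**
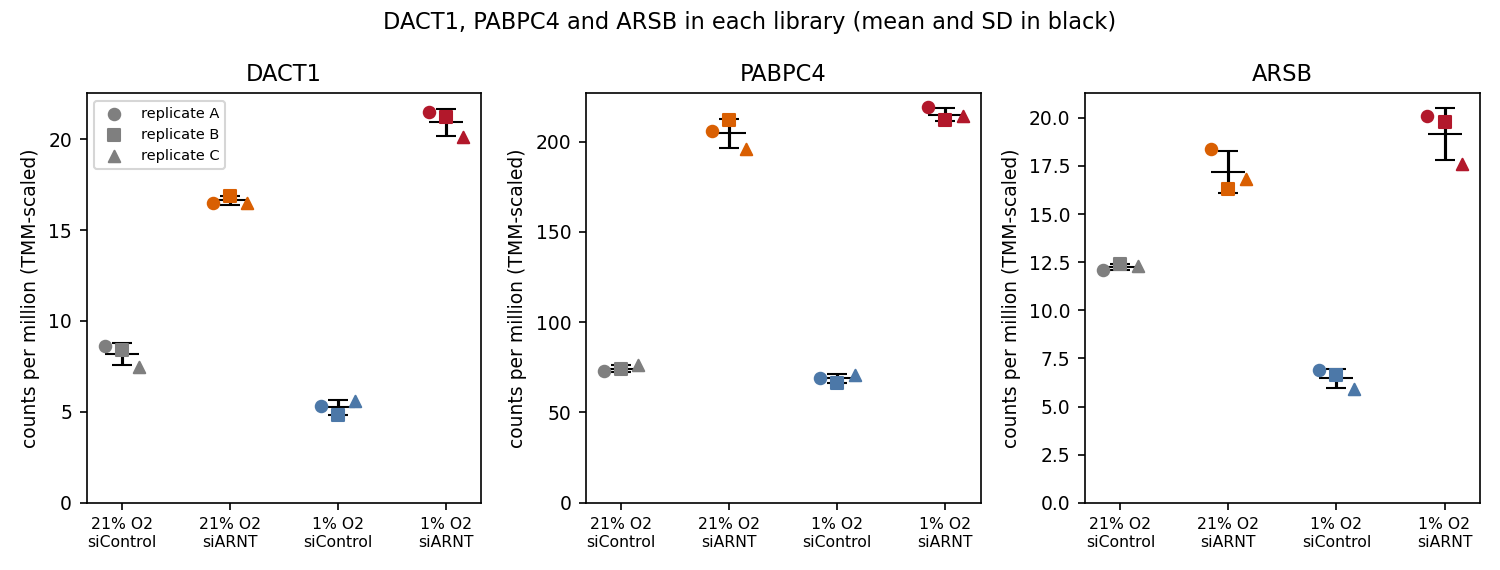
TMM-scaled CPM (linear y axis from 0) of DACT1, PABPC4 and ARSB in each of the 12 libraries, by group; symbols are replicates A, B and C, and black bars give the mean and SD. DACT1 and ARSB are lowest in hypoxia siControl, whereas PABPC4 shows 2 levels, near 70 CPM without and above 190 CPM with siARNT.

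Per kilobase of annotated exon, PABPC4 was the highest of the 3 in every group. It stood at 11.0 CPM per kb in normoxia siControl and 30.2 with siARNT, and at 10.1 CPM per kb in hypoxia siControl and 31.7 with siARNT. In the same order DACT1 stood at 1.82, 3.71, 1.17 and 4.67 CPM per kb, and ARSB at 1.36, 1.90, 0.715 and 2.12 CPM per kb. DACT1 exceeded ARSB in each group by more than the SDs, which were at most 0.160 and 0.149. Over the 12 libraries the log2 levels of DACT1 and PABPC4 had a Pearson correlation of 0.963, DACT1 and ARSB 0.948, and PABPC4 and ARSB 0.862. These are descriptions over libraries in 4 groups, and the genes were chosen on one of the differences between them.

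The 5 genes most like DACT1 by Pearson correlation over the 12 libraries (of genes that averaged at least 5 CPM) were SAMHD1 (0.990), NEDD4L, DDC, LRP11 and MLEC, with log2 differences of 0.60 to 1.47 with siARNT in hypoxia. SAMHD1 degrades deoxynucleotides and stood at 7.40, 11.9, 5.00 and 13.8 CPM over the groups in the order above. Those most like PABPC4 were ERC1 (0.9957), C19orf12, TIMP2, INPP5A and HGSNAT, and each of these had nearly the same log2 difference at both oxygen levels, from 0.40 to 0.93 in normoxia and 0.53 to 0.92 in hypoxia. Those most like ARSB were MFSD14B (0.9872), SLC36A1, LONRF2, UBR7 and CMC2. SLC36A1, a lysosomal amino acid transporter, stood at 16.4, 21.6, 9.84 and 23.0 CPM, low in hypoxia siControl like ARSB. All these genes were picked for their likeness over the same 12 libraries, so a pattern over the groups shared with the member follows from the choice.

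None of the 7 neighbouring or overlapping genes that were tested was called higher with siARNT. Over all genes 9.42% were called higher in normoxia and 14.4% in hypoxia, so none among 7 is not unusual. Neighbours are the nearest genes that were tested and need not be adjacent. LHFPL2 lay 7188 bp from ARSB, and the other neighbours lay 73639 bp (MACF1) to 250102 bp (JMY) away. On either side of DACT1, KIAA0586 had log2 fold changes of -0.16 and 0.32 with siARNT in normoxia and hypoxia, and RPL31P4, a processed pseudogene, -0.41 and 0.22, none called. The overlapping noncoding gene LINC01500 was at 0 to 0.00811 CPM, and PABPC4-AS1, antisense to PABPC4, at 0 to 0.0385 CPM (group means). Beside PABPC4, MACF1 had -0.07 and 0.07 and PPIE -0.05 and 0.03, none called, and the snoRNA gene SNORA55 inside PABPC4 averaged 0.322 to 0.445 CPM over the groups and was not called. Beside ARSB, JMY, an actin regulator, fell in both contrasts (-0.37, adjusted p 0.0116, and -0.30, adjusted p 0.0212, edgeR), and LHFPL2 fell in hypoxia (-0.29, adjusted p 0.0256, edgeR). Of all genes 10.8% were called lower in normoxia and 14.7% in hypoxia.

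Around DACT1, a list of 46 Wnt and Dishevelled genes was examined, of which 38 were tested. With siARNT, 6 were called higher and 2 lower in normoxia, and 9 higher and 3 lower in hypoxia. In normoxia that was 15.8% higher and 5.26% lower, beside 9.42 and 10.8% of all genes. In hypoxia it was 23.7 and 7.89%, beside 14.4 and 14.7%. The list medians were 0.15 and 0.06, against 0.01 and 0.02 over all genes tested. FZD4, a Wnt receptor, rose from 6.43 to 11.2 CPM in normoxia (log2 0.81, adjusted p 0.000283) and from 5.22 to 12.5 CPM in hypoxia (1.26, adjusted p 3.77e-06, edgeR). TCF7, a transcription factor of the pathway, rose from 10.6 to 18.1 CPM (0.77, adjusted p 0.000363) and from 8.62 to 18.3 CPM (1.08, adjusted p 1.1e-05). Both kept these calls under every alternative that was run. TCF7L2, a related factor at a higher level, fell in hypoxia from 114 to 80.3 CPM (-0.50, adjusted p 7.8e-05) and in normoxia from 89.0 to 75.8 CPM (-0.23, adjusted p 0.0205).

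Among secreted Wnt ligands, WNT7B fell in hypoxia from 33.4 to 17.7 CPM (-0.92, adjusted p 0.00862), and WNT10A rose in normoxia from 4.34 to 6.79 CPM (0.65, adjusted p 0.0343). The R-spondin receptor LGR5 fell in normoxia from 191 to 157 CPM (-0.28, adjusted p 0.0449). Of the rarer genes, LEF1 (0.0896 to 0.315 CPM) and FZD8 (0.0673 to 0.221 CPM) rose and ROR2 (0.332 to 0.0589 CPM) fell in hypoxia, with adjusted p of 0.0118, 0.031 and 0.00424 (edgeR). The paralogs of DACT1 were too low to test, with DACT2 at 0 to 0.0842 CPM and DACT3 at 0.0151 to 0.0705 CPM. Without normoxia siARNT replicate B, 3 genes of the list were called higher and 1 lower in normoxia. The number called higher was also 3 without normoxia siControl replicate A, B or C, and with any 1 normoxia library left out at most 1 was called lower. Over all genes the number called higher also moved, from 1601 to between 561 and 1901 with 1 normoxia library left out. The call of LGR5 ended when any single normoxia library was left out (adjusted p up to 0.132), and that of TCF7L2 in normoxia without siControl replicate A (0.0649) or B (0.0557) or siARNT replicate C (0.0532). The TCF7L2 value in normoxia was -0.13 after a correction for GC content (adjusted p 0.173), and its adjusted p without the filter on low counts was 0.12. The call of WNT10A ended without siControl replicate A, B or C or siARNT replicate B (up to 0.128), and its value was -0.09 after the GC correction. In hypoxia the call of LEF1 ended without siControl replicate A (0.0534), and that of FZD8 without siControl replicate A or C or siARNT replicate B or C (up to 0.14). Scaling to total counts gave 14 genes called higher in hypoxia, and the GC correction gave 4 called lower in normoxia and 7 in hypoxia. These settings also raised the counts over all genes. Total counts gave 3473 called higher in hypoxia in place of 2452. The GC correction gave 5466 and 7816 called in normoxia and hypoxia in place of 3431 and 4948.

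Around PABPC4, 35 of 38 poly(A)-binding proteins, their partners and deadenylases were tested, and 2 were called higher and 4 lower with siARNT in normoxia and 4 higher and 6 lower in hypoxia. These are 5.71 and 11.4% of the list in normoxia, beside 9.42 and 10.8% of all genes, and 11.4 and 17.1% in hypoxia, beside 14.4 and 14.7%. The medians were -0.10 and 0.05, against 0.01 and 0.02 over all genes tested. With the replicate block, 5 were called higher and 7 lower in normoxia, and over all genes 2512 were called higher in place of 1601. PABPC1, the abundant paralog, stood at 2278 CPM in siControl and 2364 CPM in siARNT in normoxia, and at 2538 and 2624 CPM in hypoxia. Its log2 fold change with siARNT was 0.05 in each oxygen level (SE 0.075, adjusted p 0.621 and 0.678, edgeR). TOB1 and BTG1, which link the CCR4-NOT deadenylase to target mRNA, fell in hypoxia from 136 to 80.8 CPM (-0.75, adjusted p 0.000462) and from 130 to 80.6 CPM (-0.69, adjusted p 3.12e-05). CNOT6L, a catalytic subunit of that deadenylase, fell from 69.9 to 51.8 CPM (-0.43, adjusted p 0.00167), and CNOT9, another subunit, rose from 79.5 to 99.8 CPM (0.33, adjusted p 0.0016). LARP1, which binds mRNAs of the translation machinery, rose from 364 to 479 CPM (0.39, adjusted p 0.00172). The release factor GSPT1 rose from 337 to 426 CPM (0.34, adjusted p 0.0345) and PAN2, a deadenylase, fell from 55.4 to 46.5 CPM (-0.25, adjusted p 0.0166).

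In normoxia, TOB1 (-0.39, adjusted p 0.0339), PAN2 (-0.28, adjusted p 0.0177) and CNOT6L (-0.28, adjusted p 0.0296) fell, and TOB2 (0.34, adjusted p 0.0316) and LARP1 (0.28, adjusted p 0.0201) rose (edgeR). BTG1, at -0.21, was not called there, but was with the replicate block (adjusted p 0.0256). The calls of CNOT6L, LARP1 and TOB2 ended without siControl replicate A or C or siARNT replicate B (adjusted p up to 0.106, 0.11 and 0.134). That of TOB1 ended without siControl replicate A, B or C or siARNT replicate A or B (up to 0.105) and after the GC correction (-0.24, adjusted p 0.144), and that of PAN2 without siControl replicate B or C or siARNT replicate C (up to 0.066). Without normoxia siARNT replicate B the list had 0 genes called higher and 2 lower, and it also had 0 called higher without siControl replicate A or C. With any 1 normoxia library left out, 0 to 3 were called lower. Such fits called 1571 to 3437 of all genes in either direction, in place of 3431. In hypoxia the call of GSPT1 ended without siControl replicate A, B or C or siARNT replicate A or B (up to 0.147), and that of PAN2 without siARNT replicate A (0.0546) or B (0.0625). Scaling to total counts gave 11 genes called higher and 3 lower in hypoxia. The GC correction gave 5 called higher in normoxia and 10 in hypoxia. The counts over all genes rose under both settings, as given for the Wnt list.

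Around ARSB, 30 of 34 sulfatases and genes of lysosomal glycosaminoglycan degradation were tested, and 8 were called higher and 1 lower with siARNT in normoxia and 8 higher and 2 lower in hypoxia. These are 26.7 and 3.33% of the list in normoxia, beside 9.42 and 10.8% of all genes, and 26.7 and 6.67% in hypoxia, beside 14.4 and 14.7%. The medians were 0.20 and 0.18, against 0.01 and 0.02 over all genes tested. The GC correction gave 16 higher and 4 lower in hypoxia, where it also raised the number called over all genes from 4948 to 7816. LAMP1, a lysosomal membrane protein, rose from 84.0 to 121 CPM in normoxia (0.52, adjusted p 0.0016) and from 68.1 to 118 CPM in hypoxia (0.79, adjusted p 3.28e-05, edgeR). HGSNAT, which acetylates heparan sulfate in the lysosome, rose from 60.1 to 79.3 CPM (0.40, adjusted p 0.000744) and from 57.6 to 82.9 CPM (0.53, adjusted p 3.88e-05). HYAL1, a hyaluronidase, fell from 2.08 to 1.16 CPM (-0.85, adjusted p 0.0118) and from 1.42 to 0.781 CPM (-0.87, adjusted p 0.00908).

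Of the other sulfatases, the steroid sulfatase STS fell in hypoxia from 42.1 to 26.4 CPM (-0.67, adjusted p 5.35e-05). SGSH, the heparan sulfatase, rose in normoxia from 5.42 to 10.9 CPM (1.01, adjusted p 0.027), and ARSL from 5.32 to 7.58 CPM (0.51, adjusted p 0.0283). ARSA (2.54 against 5.78 CPM in normoxia, adjusted p 0.0755) and ARSJ (24.8 against 22.8 CPM, adjusted p 0.212) were not called, although ARSA was with the replicate block (log2 1.06, adjusted p 0.0493) and without siARNT replicate A (1.46, adjusted p 0.0419), and ARSI was at 0 in every group mean. The normoxia calls of SGSH and ARSL ended without siControl replicate A, B or C or siARNT replicate B (adjusted p up to 0.101 for each), SGSH standing at 0.60 without siARNT replicate B, and that of HYAL1 without siControl replicate C (0.0559). In normoxia 4 genes of this list were called higher without siARNT replicate B or siControl replicate B, and 3 without siControl replicate A or C. The number called higher over all genes ran from 561 to 1901 with 1 normoxia library left out, in place of 1601.

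**Figure D3:**
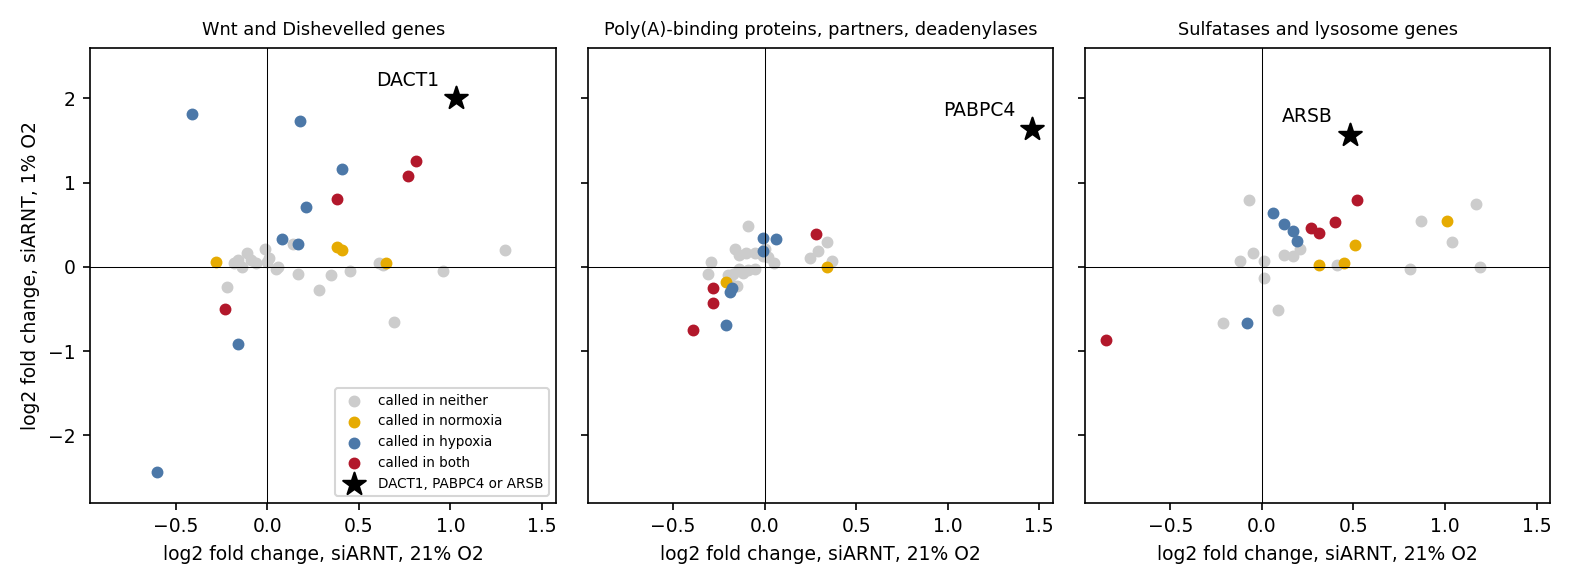
Log2 fold change with siARNT in normoxia (x axis) against hypoxia (y axis) for the tested genes of the 3 lists, coloured by the contrasts in which they were called. The star in each panel is DACT1, PABPC4 or ARSB, whose hypoxia value chose it; PABPC4 at 1.46 and 1.64 lies far from the other genes of its list, whose paralog PABPC1 is at 0.05 in both.

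With hypoxia in siControl, 6 Wnt genes were called higher and 8 lower, 6 poly(A) genes higher and 7 lower, and 3 sulfatase and lysosome genes in each direction, beside 10.4% called higher and 14.9% called lower over all genes. With hypoxia in siARNT, 2 Wnt genes were called higher and none lower, and no gene of the other 2 lists was called, beside 2.21% called higher and 1.89% called lower over all genes. The siARNT change differed between hypoxia and normoxia, by the interaction term, in 4.69% of all genes tested. Among the named list genes this held for BTG1 and STS.

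The event files list 33 splicing events of PABPC4, of which 19 had at least 20 reads over both forms in every library and were tested, and 1 event each of DACT1 and ARSB, which fell short of that. The segments that differ between the forms in 3 cases are printed with their GRCh38 position, found by matching the spacing of the event boundaries to GENCODE 29 exons, because they show what each choice adds to the coding sequence. All 3 keep the reading frame. The first is an 87-nt PABPC4 exon (chr1:39563836-39563922, minus strand, 29 codons, transcript PABPC4-202), the second a 48-nt stretch between 2 alternative 5′ splice sites of PABPC4 (chr1:39564423-39564470, minus strand, 16 codons, PABPC4-201) and the third a 111-nt stretch between 2 alternative 3′ splice sites of DACT1 (chr14:58645258-58645368, plus strand, 37 codons, DACT1-201).
PABPC4 87-nt exon: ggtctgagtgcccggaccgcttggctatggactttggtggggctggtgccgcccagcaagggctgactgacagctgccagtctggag
PABPC4 48-nt stretch: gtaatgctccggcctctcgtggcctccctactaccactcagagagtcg
DACT1 111-nt stretch: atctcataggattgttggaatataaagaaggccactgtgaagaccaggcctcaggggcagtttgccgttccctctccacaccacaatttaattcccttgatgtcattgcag

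None of the 19 PABPC4 events was called with siARNT in normoxia, with hypoxia in siControl or with hypoxia in siARNT (limma on the log2 ratio of the forms, lowest adjusted p 0.153, 0.813 and 0.726). At an unadjusted p under 0.05 there were 2, 0 and 0. Over all 40169 events tested, 0.154%, 0.0647% and 0.0299% were called by limma. An edgeR count model on the reads of both forms called 0 PABPC4 events in each comparison (3, 0 and 0 at an unadjusted p under 0.05). That model called only 0, 1 and 1 of all 40169 events, so its 0 says little about PABPC4. In the 3 most deeply read PABPC4 events the share of a form stayed near its limit in each group. A 95-nt exon was included in 98.9% of spliced reads in normoxia siControl and 99.2% with siARNT, and in 99.4 and 99.2% in hypoxia. An alternative 5′ splice site was used in 0, 0, 0 and 0.120% in the same order, and an alternative 3′ splice site in 1.04, 2.06, 0.846 and 4.2%. By library the last was 3.13, 0 and 0% in normoxia siControl and 3.12, 0 and 3.08% in normoxia siARNT. In hypoxia it was 2.54, 0 and 0% in siControl and 4.26, 3.48 and 4.85% in siARNT. The hypoxia groups did not overlap, and that contrast was not tested for events. The share of all events or introns whose groups do not overlap was not counted. A lack of overlap in an event or intron, here and below, is therefore only a description.

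The events described next were chosen after their values had been seen. Skipping of the 87-nt exon of PABPC4, printed above, is covered by 4 events. In the only one of them that was tested, which counts reads from the 5′ splice site that keeps the 48-nt stretch to either the exon or the next one, skipping made up 2.94, 4.76 and 4.76% of junction reads in normoxia siControl and 8.20, 12.8 and 13.5% in normoxia siARNT. In hypoxia the shares were 2.50, 6.25 and 13.6% in siControl and 14.7, 11.9 and 9.15% in siARNT. The normoxia groups did not overlap, but siControl held 1 skipping read in each normoxia library, and the test did not pass (adjusted p 0.736, limma). The cassette event of the same 5′ splice site, which averages the junctions on both sides of the exon, had too few reads to test and gave inclusion of 92.3 ± 1.72% in normoxia siControl and 81.8 ± 3.92% with siARNT, and of 87.2 ± 9.36 and 80.1 ± 5.11% in hypoxia (SD, n = 3). The junctions were unevenly read. In normoxia siControl 33, 20 and 20 reads joined the exon on its 5′ side and 0, 1 and 1 on its 3′ side. In normoxia siARNT these were 168, 293 and 64 against 14, 87 and 7. The average is therefore not a share of transcripts that hold the exon. From the other 5′ splice site the difference had the opposite sign, with inclusion of 68.9 ± 27.8 and 80.3 ± 5.75% in normoxia and 52.7 ± 18.6 and 81.5 ± 10.6% in hypoxia (siControl and siARNT; SD, n = 3) over 4.50 to 99.5 reads per library, also too few to test. The same 3′-side reads enter these values. Counted on the 5′ side alone, skipping from that site was 21.7 ± 20.2 and 14.8 ± 1.46% in normoxia. In hypoxia it was 37.4 ± 20.2 and 13.6 ± 8.09% (siControl and siARNT; SD, n = 3). The 48-nt stretch was included in 74.0 ± 12.3, 73.1 ± 6.20, 78.4 ± 11.9 and 78.1 ± 4.25% (SD, n = 3), with no difference beyond the spread. In DACT1 the junction without the 111-nt stretch made up 81.5 ± 7.46, 73.9 ± 2.52, 72.5 ± 3.96 and 73.9 ± 3.39% of 10 to 78 reads per library. In ARSB the shorter form of an alternative 3′ splice site made up 3.75, 0, 3.70 and 3.99% of 11 to 84 reads.

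The PABPC4 event with the lowest adjusted p concerned a 500-nt intron beside the 87-nt exon (positions 40029595 to 40030094 of chromosome 1 in the coordinates of the event files). Its coverage as a share of coverage plus spliced reads was 38.8, 39.6 and 37.1% in normoxia siControl and 14.7, 4.90 and 18.5% in normoxia siARNT, and 32.1, 30.2 and 33.8% against 15.4, 13.6 and 4.85% in hypoxia. The groups did not overlap at either oxygen level, in an event picked for its lowest adjusted p. The normoxia log2 ratio was -2.29 (SE 0.535, unadjusted p 0.000848, adjusted p 0.153, limma), or -1.65 without siARNT replicate B (adjusted p 0.443). Reads spliced across the intron, on the CPM scale, were 0.443, 0.437 and 0.371 in normoxia siControl and 1.96, 5.04 and 1.26 in normoxia siARNT. The mean coverage inside the intron was 0.281, 0.286 and 0.219 on the same scale in normoxia siControl and 0.338, 0.260 and 0.284 in normoxia siARNT. Thus the spliced reads were higher with siARNT while the coverage of the intron overlapped between the groups.

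This pattern was then looked at along PABPC4, in segments chosen after their values had been seen, as mean coverage on the CPM scale. In exons the coverage was higher with siARNT in every normoxia library. A 95-nt exon stood at 7.12, 7.43 and 8.99 in normoxia siControl and 22.4, 18.7 and 19.3 in normoxia siARNT, a ratio of 2.56, and the ratio in hypoxia was 3.26. An 88-nt exon had ratios of 3.78 and 3.56, a 103-nt exon 3.18 and 3.47, and the 307-nt last exon 2.77 and 3.01 in normoxia and hypoxia.

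In the 3 introns that hold no alternative exon the coverage with siARNT overlapped that of siControl, while other stretches listed as introns had higher values. GENCODE 29 lists transcripts that keep each of these 3 introns. The 1110-nt intron stood at 0.384, 0.335 and 0.293 in normoxia siControl and 0.374, 0.341 and 0.365 in normoxia siARNT, a ratio of 1.07. In hypoxia it stood at 0.378, 0.316 and 0.386 in siControl and 0.402, 0.370 and 0.307 in siARNT, a ratio of 0.999. The 500-nt intron had ratios of 1.12 and 0.987 and the 94-nt intron of 1.15 and 0.876, and in all 3 introns the groups overlapped at both oxygen levels. Without normoxia siARNT replicate B the normoxia ratios were 1.10, 1.19 and 0.663 for the 1110-, 500- and 94-nt introns, the last at a raw coverage of 3.6 to 15.6 reads. Reads spliced across the 94-nt intron numbered 0, 1 and 1 in normoxia siControl and 14, 87 and 7 in normoxia siARNT. In hypoxia they were 1, 4 and 1 against 3, 7 and 24 and overlapped. Its coverage as a share of coverage plus spliced reads was 100, 89.5 and 78.3% against 34.9, 15.2 and 36.9% in normoxia. In hypoxia it was 87.8, 74.2 and 87.2% against 53.8, 49.3 and 26.8%. The shares did not overlap, but 4.6 to 103 reads per library were too few to test. Of the other 6 PABPC4 introns in the event files, 2 overlap the 1110-nt intron and had ratios of 1.13 and 1.07 in normoxia and 1.02 and 0.989 in hypoxia. Another 3 contain the 87-nt exon or the 48-nt stretch, and their ratios were 2.05, 2.59 and 1.97 in normoxia (1.52, 1.82 and 1.61 without siARNT replicate B) and 1.53, 1.96 and 1.68 in hypoxia. The last, of 950 nt, contains the 103-nt exon, which was included in 99.7 to 100% of spliced reads (group means). It had ratios of 2.41 and 2.83, with groups that did not overlap.

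For scale, introns of other genes that were called at least 2-fold higher with siARNT and had a mean coverage of at least 5 reads were counted in the event files. In normoxia these were 37 introns of 25 genes, with a median coverage ratio of 1.93 at a median gene fold of 2.42, and 1 had a ratio under 1.2. In hypoxia they were 12 introns of 6 genes, with a median ratio of 1.2 at a median gene fold of 2.03, and 7 had a ratio under 1.2. The files do not state whether coverage was counted by strand.

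**Figure D4:**
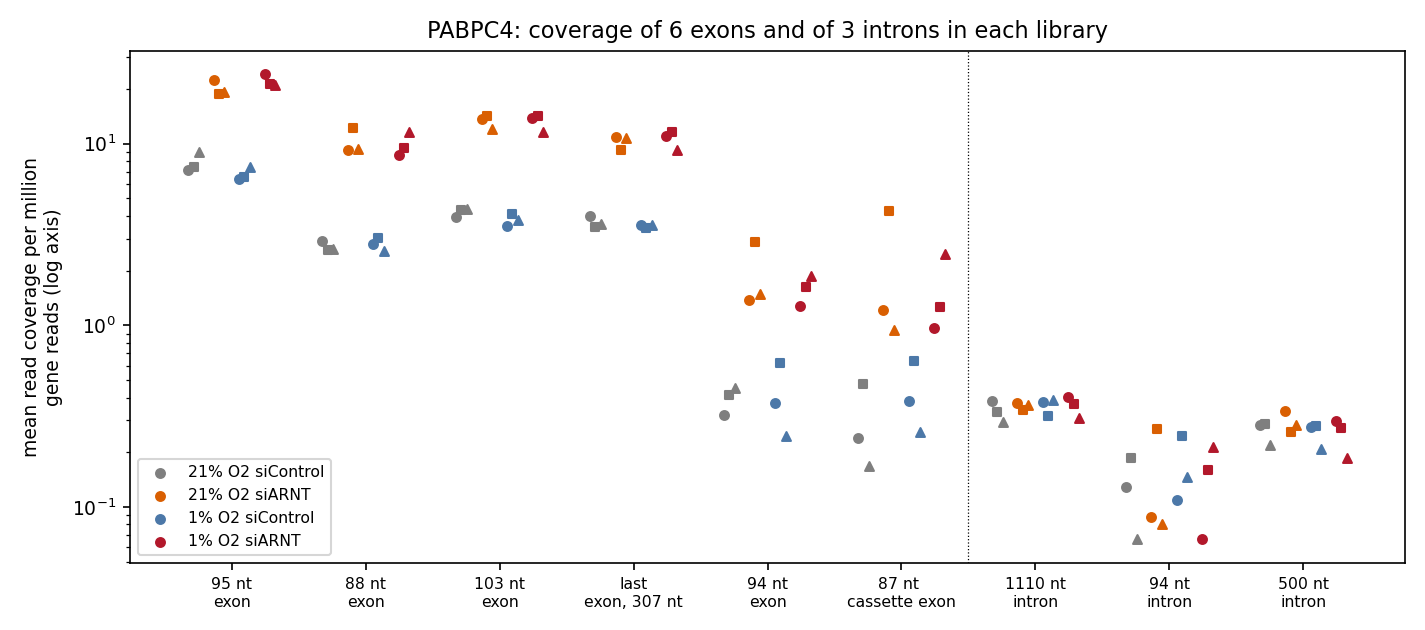
Mean read coverage on the CPM scale (log y axis) of 6 PABPC4 exons and 3 introns (x axis, labelled by length), with 1 symbol per library (circle, square and triangle for replicates A, B and C). The siARNT libraries lie above siControl in the exons drawn, while in the introns, right of the dotted line, the 4 groups overlap. The 128-nt exon, whose groups overlapped in hypoxia, is not drawn.

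The coverage of 3 GC-rich exons near these introns was low and moved with the library. The 94-nt exon (GC content 67.0%) stood at 0.321, 0.415 and 0.453 in normoxia siControl and 1.37, 2.86 and 1.49 in normoxia siARNT, a ratio of 4.81, and 3.62 without replicate B. The 87-nt exon (65.5%) had a ratio of 7.28, and 3.67 without replicate B. The 128-nt exon (63.3%) had a ratio of 10.9, and 3.97 without replicate B, and in hypoxia its ratio was 3.12 with groups that overlapped, and 6.87 without hypoxia siControl replicate B. The GC contents of the 3 introns were 41.6, 45.7 and 47.2%, and those of the 95-, 88-, 103- and 307-nt exons 44.2, 53.4, 51.5 and 33.9%. Replicate B, with the steepest GC slope, was the highest of the normoxia siARNT libraries in all 3 GC-rich exons. Hypoxia siARNT replicate C, with the highest slope of its group, was likewise the highest of that group in these exons. The part of GC content in the splicing values was not tested.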

How the data were processed

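Poly(A)-selected, stranded libraries of 12 AsPC-1 samples were analysed, with groups and replicate letters taken from the sample titles. Reads were trimmed with Trimmomatic and aligned with STAR 2.4.2a, per the submitters' processing notes, which name GRCh38.p10. The deposited gene files hold whole-number counts of reads per gene ID. The counter's settings are not given in the sources used here. Lines that name no gene held 22.71 to 25.2% of the reads and were left out. Symbols from GENCODE 29 and a gene name table matched 90.52% of the IDs.

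The deposited event files hold junction read counts, the mean coverage of exons and introns (a signal, per the file headers) and the share of a form (percent spliced in) as a fraction. No tool is named in the file headers. Recomputed shares matched the deposited fraction to within 0.005 in 98.87 to 100% of values. For alternative splice sites the deposited share counts the first form, which was checked against coverage. None of the event boundaries of the 3 genes lay at its GENCODE 29 position, so event coordinates are in an unnamed build, while 5 of 5 boundaries of DACT1, 39 of 54 of PABPC4 and 4 of 5 of ARSB fitted GENCODE 29 exons at 1 spacing.

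Counts were tested with edgeR 4.0.16 (TMM, filterByExpr, robust quasi-likelihood, all 12 libraries, 1 mean per group), and 16999 genes passed the filter. Events were tested with limma 3.58.1 on log2 ratios of the forms with a pseudocount of 0.5. p-values were adjusted by Benjamini-Hochberg over all genes or events, and calls are adjusted p under 0.05. Both scripts were tested on simulated data. Coverage was divided by TMM-scaled library totals. Alternatives were other scalings, filters, DESeq2 1.42.0, a GC correction, the replicate letter as a block, and leaving out each library.

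The members and lists were chosen with earlier results of these data known. List genes were named as the 3 largest called rises and falls in each siARNT contrast, plus paralogs. A gene that this rule selects is not reported here by name. Genes like each member were the 5 with the highest Pearson correlation, and neighbours the nearest on each side that passed the filter. Among events the 3 with the most reads were named by rule, and the others after their values were seen. Deviations from group means correlated by letter for siARNT in normoxia (0.702, 0.882 and 0.387) and hypoxia in siControl (0.513, 0.743 and 0.499). For siARNT in hypoxia (0.683, -0.095 and -0.719) and hypoxia in siARNT (0.909, -0.129 and -0.853) the sign differed between letters. The correlation between different letters was not computed, and the labels do not say that a letter names a well, so pairing by letter is not established. The replicate block fits the same letter effects to all 12 libraries, also to hypoxia siARNT. PECAM1, one of the markers, was not analysed here. Counts carry no molecular identifiers, and replicate pairs differed beyond sampling noise.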

Additional observations from a re-analysis of the deposited data

Results flagged for a closer look

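The siARNT change differed between hypoxia and normoxia for 2 of the named list genes, by the interaction term of the edgeR fit over all genes. BTG1, a partner of the CCR4-NOT deadenylase, had log2 fold changes of -0.21 in normoxia and -0.69 in hypoxia, a difference of -0.48 (SE 0.10, adjusted p 0.0249). STS, the steroid sulfatase, had -0.08 and -0.67, a difference of -0.59 (adjusted p 0.0111). The hypoxia genes used to check the oxygen label differed by more, with -3.02 for CA9, -2.32 for NDRG1 and -2.57 for EGLN3.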

How the results depend on the processing

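The log2 fold changes of DACT1, PABPC4 and ARSB for siARNT in normoxia kept their direction and call in all 16 alternatives. They ran from 0.93 to 1.06 for DACT1, 1.42 to 1.56 for PABPC4 and 0.43 to 0.55 for ARSB, with the highest adjusted p at 0.00125, 5.32e-05 and 0.0234. With 1 library left out they ran from 0.95 to 1.05, 1.42 to 1.49 and 0.43 to 0.51. In hypoxia the values ran from 1.92 to 2.08, 1.60 to 1.73 (1.73 with total count scaling) and 1.5 to 1.65. The number of genes called was 3431 for siARNT in normoxia and 4948 for siARNT in hypoxia. It rose to 5466 and 7816 with the GC correction and to 5843 and 8058 with the GC correction and the replicate block. It was 4732 and 5425 with the replicate block alone. With 1 library left out it ran from 1571 (without normoxia siControl replicate C) to 3437 for siARNT in normoxia. For siARNT in hypoxia the range was 3537 to 4519. In normoxia it was also more than 1.5 times lower without normoxia siControl replicate A (1604) or B (2157) and without normoxia siARNT replicate B (2187). The number called higher in normoxia, 1601, moved to 2512 with the replicate block. The replicate block changed no call of DACT1, PABPC4 or ARSB, added those of ARSA and BTG1 in normoxia among the named list genes, and left 0 PABPC4 events called.

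Of 33 called values of named list genes, 18 were called in every alternative and 15 were lost in at least 1. Without the filter on low counts the normoxia calls of CNOT6L (adjusted p 0.0672), LGR5 (0.0538), PAN2 (0.0788) and SGSH (0.0888) ended, and that of PAN2 in hypoxia (0.0561). With scaling to total counts PAN2 in hypoxia was -0.17 (0.105), with RLE size factors LGR5 had 0.0544, and with the 6 normoxia libraries alone ARSL had 0.0552 and TOB2 0.052. With the GC correction, alone and with the replicate block, GSPT1 in normoxia turned from -0.01 to 0.14 (adjusted p 0.0325 and 0.0255) and WNT10A from 0.65 to -0.09 (0.638 and 0.586). The number of PABPC4 events called was 0 under all 13 alternatives in each comparison. Few events of any gene were called in them, at most 105 of 42801 (siARNT in normoxia, its 6 libraries alone). The coverage ratio of a 128-nt PABPC4 exon in hypoxia was 3.12, and 6.87 without hypoxia siControl replicate B. The cause of these shifts was not tested. The splicing values are limited by depth, with 21 to 336 junction reads at the 87-nt exon.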
